A study of Mus musculus with 12 samples.

Results

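Sorted GFP+ cells from RasV12 brain tumors of mice were compared, across all genes, with sorted GFP+ cells from control cerebellum. The comparison used 6 of the 12 libraries of the series, chosen by their labels as every library of the GFP+ groups, 3 of RasV12 cells and 3 of control cells. The RasV12 cells have the genotype Msi1-CreER;RasV12 and the control cells Msi1-CreER;GFP, both on a 129;C57BL/6 mix background. Both genotypes thus carry Msi1-CreER, a form of Cre recombinase that a drug activates, in cells that use Msi1, a gene of neural stem and progenitor cells. RasV12 is a form of Ras locked in its active state. The labelled origin is tumor for the RasV12 cells and cerebellum for the control cells, so the effects of allele and tissue cannot be told apart in any result below. The labels give no age, drug or time, and they do not say which Ras gene carries the change or how the tumor cells came to express GFP. They do not say whether replicates are separate animals, so p-values measure only the spread between these libraries. The other 6 libraries are CD11b+ phagocytes of the same genotypes and enter only where they bear on a result.

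Active Ras binds Raf kinases and starts the MEK and ERK kinase cascade. ERK activates transcription factors of the AP-1, EGR and PEA3 families, which raise growth factor, cyclin and protease genes. They also raise feedback inhibitors, the Sprouty proteins and the dual specificity phosphatases. A sustained Ras signal is known to raise inhibitors of cyclin-dependent kinases, p53 targets and secreted cytokines, a state described as oncogene-induced senescence. In the adult cerebellum, Msi1 is known from astrocytes and from Bergmann glia, the radial glia that stand beside Purkinje cells.

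The control libraries held 18519240 to 32624399 reads in genes and the RasV12 libraries 21227344 to 34432725. Pearson's r of log2 levels across genes, which are not independent replicates, was 0.717 to 0.762 among control libraries and 0.810 to 0.874 among RasV12 libraries. Between the groups it was 0.481 to 0.602. In each group, replicate 3 had Xist and no Ddx3y reads and replicates 1 and 2 had Ddx3y reads, so sexes were spread alike over the groups. RasV12 libraries had reads in more genes, 26528 to 28240 against 17669 to 21101. Olfactory receptor genes, most of which are silent outside the nose, had reads for 454 to 553 of 1111 genes in RasV12 libraries and 111 to 259 in control libraries. In the CD11b+ libraries 669 to 796 of these genes had reads, so the control GFP+ libraries had the fewest of the 12. The origin of these reads, and the part of this difference in the low-level genes called higher, was not tested.

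Of 17006 genes tested, 1831 (10.8%) were higher in RasV12 GFP+ cells and 1752 (10.3%) lower, by limma on log2(normalized count + 1) at a Benjamini-Hochberg adjusted p of 0.05. No called gene overlapped between groups, and of all tested genes 22.3% lay wholly above and 18.6% wholly below the control values. Values below are normalized counts, in the order of replicates 1 to 3 of each group. The log2 fold change (log2FC) is RasV12 minus control, with its moderated standard error from limma over 3 against 3 libraries. For that error and the p-values, limma draws each gene's variance toward that of genes at a like level. The error can therefore be larger or smaller than the gene's own spread between libraries. Means are given with their SD, which is the spread of the libraries. Over all tested genes the median log2FC was 0.40, the median standard error 0.80 and the smallest called difference 0.58. Where a call did not hold with 1 library left out, with all 12 libraries in the fit or under another setting apart from the replicate block, that adjusted p follows the main one. The lists held 1061 distinct genes, of which 910 passed the filter on low values, and counts are over those. A gene that passed only through the group where it is high had to differ, so these counts describe the lists and test nothing. A list's counts are also given with 1 library left out and under the other settings where they moved by over 1.5 times, with the libraries that moved them in parentheses. A list with a share near or below 10.8% higher or 10.3% lower is no more often called in that direction than all genes. Calls in such a list are given as single genes, not as a result about the list. Of the higher calls, 438 had no read in any control library and 195 had 1 to 3. For such genes the log2FC depends on the added 1, so a fold is given first, as a lower bound against 3 reads over the group or as a ratio with its 95% interval, which covers counting error only. Of the lower calls, 51 had no RasV12 read. Rescaling by the total without mitochondrial, rRNA and hemoglobin genes moved the median log2FC of all genes from 0.40 to 0.73 and the share of higher among called genes from 51.1% to 63.8%.

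**Figure D1:**
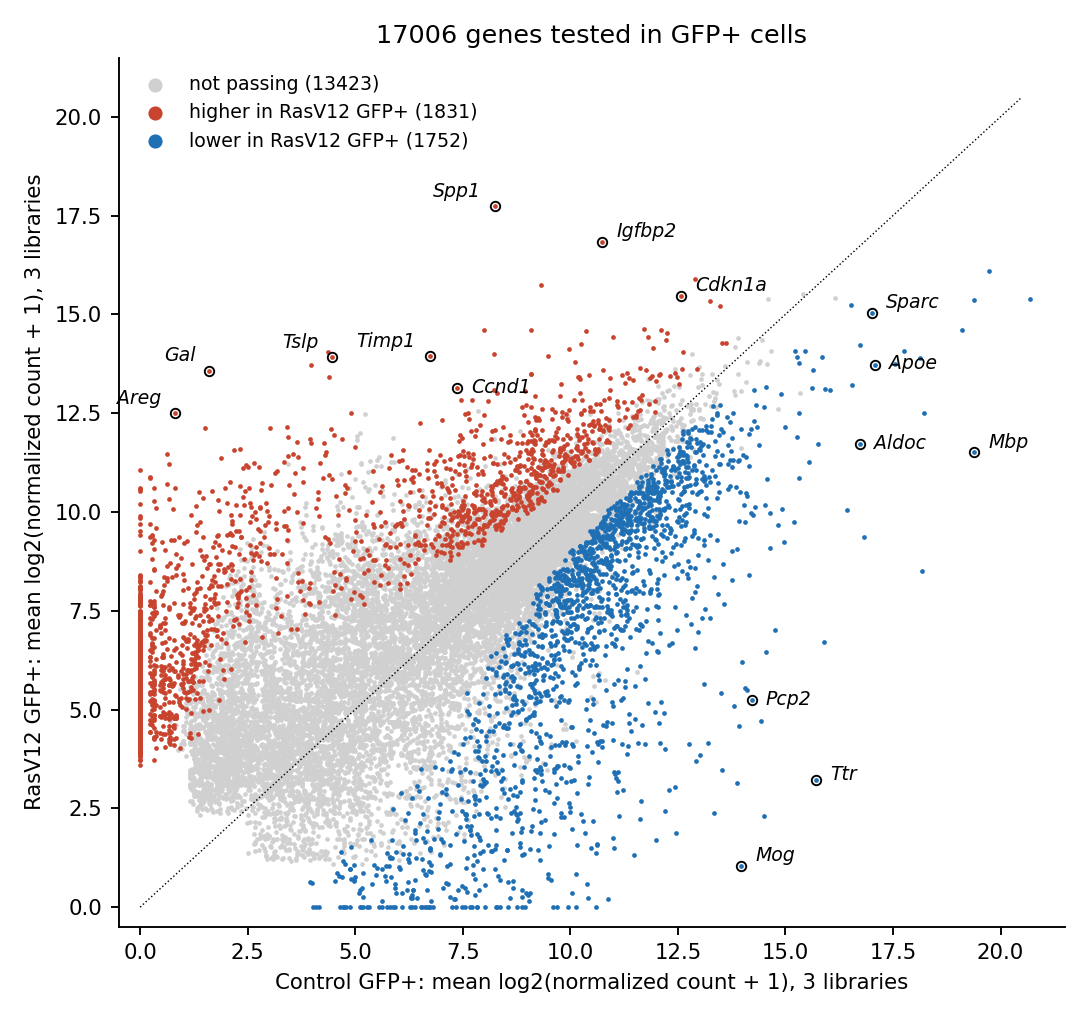
Mean log2(normalized count + 1) over the 3 Control GFP+ libraries (horizontal) and the 3 RasV12 GFP+ libraries (vertical) of each of the 17006 genes tested, 1 point per gene. Red points are the 1831 higher and blue points the 1752 lower genes, and the dotted line marks equal levels; genes with no control read stand on the left edge, and myelin genes such as Mbp and Mog lie far below the line.

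The plot of mean levels shows genes that leave the diagonal at every level, and the most abundant nuclear transcripts of the groups were different ones. Per transcript length, the control cells were led by Hbb-bs, a hemoglobin chain, with 14048 ± 17681 FPKM (SD, n = 3). Fth1, which encodes ferritin, and Mbp, myelin basic protein, followed with 6609 ± 1344 and 5138 ± 2105 FPKM. The RasV12 cells were led by Spp1, which encodes osteopontin, with 8502 ± 3908 FPKM, and Igfbp2, which binds insulin-like growth factors, with 3867 ± 835. Fth1 (2711 ± 644 FPKM), Cdkn1a (1294 ± 481), Timp1 (1132 ± 510.0), Gal (1065 ± 351), Cd81 (980.0 ± 67.1), Ifitm3 (976 ± 187) and Tslp (840.5 ± 210.4) came next in the RasV12 cells. Fth1 was the only gene among the first 10 of both groups and was lower in RasV12 cells, with the sign turned after quantile normalization (log2FC -1.29 ± 0.24, adjusted p = 0.0121, but 0.0618 to 0.0699 without RasV12 GFP+ 2 or 3, 0.162 after quantile normalization and 0.0584 in the 12-library fit). Cd81, a tetraspanin of the cell surface, stood at 909.8 ± 153 FPKM in control cells and did not pass (log2FC 0.12 ± 0.18, adjusted p = 0.678). Spp1, a secreted matrix and cytokine protein, had 502, 144 and 389.6 in control and 356207, 188242 and 156359 in RasV12 libraries as normalized counts. All RasV12 libraries lay far above the controls (log2FC 9.48 ± 0.53, adjusted p = 0.00043). Hemoglobin varied widely within the control group, since Control GFP+ 2 held most of it. Hbb-bs had 5317, 435672 and 98626 in control and 105, 267 and 40.4 in RasV12 libraries.

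Among Ras proteins and their first partners, 1 of 19 tested genes was higher and 3 lower, with a median log2FC of -0.22; the number lower was 1 in the 12-library fit. Hras had 2308, 3327 and 3298 in control and 3748, 2577 and 2611 in RasV12 libraries. The groups overlapped, and neither Hras (adjusted p = 0.997) nor Nras (log2FC -0.403, adjusted p = 0.466) passed. The counts do not separate a mutant from a wild-type transcript. Mras, a Ras relative that helps to activate Raf, had 2245, 1764 and 1973 in control and 299.9, 132 and 155 in RasV12 libraries. Every RasV12 library fell below the controls (log2FC -3.43 ± 0.39, adjusted p = 0.00275). Of the kinases that Ras binds, Araf fell (log2FC -1.07 ± 0.18, adjusted p = 0.0082, but 0.107 in the 12-library fit), while Braf did not pass (log2FC -0.82 ± 0.31, adjusted p = 0.109). Rasa1, a GTPase-activating protein that turns Ras off, rose from 935 ± 232 to 2817 ± 798 (log2FC 1.58 ± 0.303, adjusted p = 0.0124). Msi1, the gene that gives the Cre line its name, was low, with 84.9, 20 and 71.2 in control and 40.6, 39.6 and 18.6 in RasV12 libraries. The groups overlapped and it did not pass (log2FC -0.66 ± 0.96, adjusted p = 0.665).

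Of the feedback inhibitors of the ERK cascade, 5 of 10 tested genes were higher and none lower, with a median of 3.09; the number higher was 1 to 5 with 1 library left out (RasV12 GFP+ 1, 2 or 3 or Control GFP+ 3), 2 with no filter and 3 in the 12-library fit. Spry4, a Sprouty protein that blocks Ras activation below growth factor receptors, had 4.2, 7.2 and 90.5 in control and 11245, 15495 and 13978 in RasV12 libraries. Control GFP+ 3, the highest control library, still lay far below the lowest RasV12 library (log2FC 9.74 ± 1.04, adjusted p = 0.00231). Dusp6, the phosphatase that removes phosphate from ERK, had 1688, 8.8 and 1018 in control and 21647, 31211 and 23173 in RasV12 libraries. Control GFP+ 2 stood apart at the low end, and the standard error is wide (log2FC 6.61 ± 1.83, adjusted p = 0.0458, but 0.0523 to 0.138 without RasV12 GFP+ 1, 2 or 3 or Control GFP+ 3, 0.0511 at a pseudocount of 0.5, 0.072 with no filter, 0.0507 with a robust variance and 0.0679 with sex as a covariate). Spry2 had 803, 266 and 167 in control and 2476, 1881 and 1237 in RasV12 libraries, a smaller separation (log2FC 2.44 ± 0.61, adjusted p = 0.0326, but 0.0668 to 0.118 without RasV12 GFP+ 1, 2 or 3 or Control GFP+ 2 or 3, 0.0613 with no filter and 0.141 in the 12-library fit).

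Of the transcription factors and other genes that answer to ERK, 10 of 19 tested genes were higher and 1 lower, with a median of 3.33; the number higher was 3 to 10 with 1 library left out (RasV12 GFP+ 1, 2 or 3 or Control GFP+ 3) and 4 in the 12-library fit. Fosl1, a stable AP-1 subunit that builds up under lasting ERK activity, had 4.8, 0 and 23.4 in control and 2347, 1182 and 826 in RasV12 libraries. RasV12 GFP+ 1 was the highest of its group (log2FC 7.98 ± 1.25, adjusted p = 0.00649). Fos, the short-lived subunit, had 1069, 394 and 1103 in control and 11381, 748 and 419.5 in RasV12 libraries. RasV12 GFP+ 1 stood far above the others, the groups overlapped and Fos did not pass (log2FC 0.98 ± 1.21, adjusted p = 0.605). The PEA3 factors went apart. Etv4 had 451, 17.6 and 229.9 in control and 2699.6, 3394 and 2299 in RasV12 libraries and was higher (log2FC 4.47 ± 1.12, adjusted p = 0.0324, but 0.0956 to 0.113 without RasV12 GFP+ 1, 2 or 3, 0.0548 with no filter, 0.0605 in the 12-library fit and 0.0554 with sex as a covariate). Etv1 had 1459, 2369.9 and 2879 in control and 494, 510.2 and 491 in RasV12 libraries and was lower (log2FC -2.11 ± 0.31, adjusted p = 0.00552). Etv5 had 1195, 338 and 1141 in control and 1272, 3692 and 4667 in RasV12 libraries and did not pass (log2FC 1.85 ± 0.67, adjusted p = 0.0997). Ier3, induced early by growth factors, rose from 130.1 ± 79.1 to 2256 ± 1084 (log2FC 4.21 ± 0.59, adjusted p = 0.0046, but 0.0716 in the 12-library fit). Over 14 immediate early and heat shock genes that cell dissociation is known to raise, the summed counts were 6336 to 8758 in control and 12217 to 60745 in RasV12 libraries, highest in RasV12 GFP+ 1. Of these 14 genes 5 were higher; the number higher was 0 to 5 with 1 library left out (RasV12 GFP+ 1, 2 or 3 or Control GFP+ 3), 3 with no filter and 1 in the 12-library fit. The part of dissociation in these results was not tested.

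Ligands of the EGF receptor family were among the largest differences. Of ligands, receptors and the protease that sheds them, 5 of 11 tested genes were higher and none lower, with a median of 2.33, and 4 of the 5 calls held with each library left out. Areg, amphiregulin, had 0, 0.8 and 2 in control and 7646, 5189.5 and 4923 in RasV12 libraries. The control values rest on 3 reads, and the RasV12 libraries were close together (7676-fold higher, 95% interval 2626 to 37222; log2FC 11.69 ± 0.699, adjusted p = 0.000513). Ereg, epiregulin, had no control read and 3099, 696 and 762 in RasV12 libraries. RasV12 GFP+ 1 lay well above the others (at least 1972-fold higher; log2FC 10.21 ± 0.96, adjusted p = 0.00164). Btc, betacellulin, had 0, 0.8 and 0 in control and 1179, 522 and 504 in RasV12 libraries. RasV12 GFP+ 1 was again the highest (2856-fold higher, 95% interval 512 to 112812; log2FC 9.12 ± 0.89, adjusted p = 0.00182). Hbegf, the heparin-binding ligand, was present in control cells, with 1974, 619 and 807 in control and 26423, 17294 and 12471 in RasV12 libraries. It rose in every RasV12 library (log2FC 4.16 ± 0.48, adjusted p = 0.00291). Another ligand, Tgfa, transforming growth factor alpha, had 518, 275 and 809.8 in control and 317, 189.7 and 292 in RasV12 libraries. Its groups overlapped and it did not pass (log2FC -0.903 ± 0.51, adjusted p = 0.264). Adam17, the protease that releases these ligands from the membrane, rose from 654 ± 358 to 2148 ± 873 (log2FC 1.78 ± 0.49, adjusted p = 0.0434, but 0.0737 to 0.142 without RasV12 GFP+ 1, 2 or 3 or Control GFP+ 1 or 2, 0.0827 with no filter, 0.0765 with array weights and 0.0588 in the 12-library fit). The receptor Egfr had 940.2, 147 and 498 in control and 1249, 1218 and 1895 in RasV12 libraries, all RasV12 libraries lying above the controls without passing (log2FC 1.79 ± 0.67, adjusted p = 0.109). Erbb2, its partner, overlapped and did not pass (log2FC 3.95 ± 2.47, adjusted p = 0.311).

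Areg, Ereg and Btc lie beside the CXC chemokine genes, and the stretch was chosen for description after these values were seen. Between the outer ends of Cxcl5 and Btc, chr5:90759360-91402994 of GRCm38.p6 or 644 kb, the annotation has 12 protein-coding genes. Of these 10 were tested and 9 were higher, against 10.8% of all tested genes. The ends of the stretch were set at called genes. Ppbp, Cxcl3, Cxcl1, Cxcl2, Ereg, Areg and Btc passed the filter only through RasV12 libraries and so had to differ. The count therefore describes the stretch and tests nothing. In order along the chromosome they are Cxcl5, Ppbp, Pf4, Cxcl3, Cxcl1, Cxcl2, Ereg, Areg and Btc. The tested gene that did not pass was Mthfd2l, a mitochondrial folate enzyme, with 653, 95.4 and 403 in control and 194, 160.5 and 145 in RasV12 libraries (log2FC -0.82 ± 0.76, adjusted p = 0.49). Epgn, an EGF-like ligand next to Ereg, had no read in any of the 6 libraries. Outside the stretch, Parm1, beyond Btc, was also higher (log2FC 1.86 ± 0.31, adjusted p = 0.00806, given for the main fit only). RP24-63O24.2, before Cxcl5, did not pass (log2FC -0.32 ± 1.70, adjusted p = 0.913). Pf4, platelet factor 4, had 54.6, 36.9 and 0 in control and 3587, 2988 and 1830.4 in RasV12 libraries, so that all RasV12 libraries lay above the controls (log2FC 7.72 ± 1.51, adjusted p = 0.0134, but 0.0509 to 0.0641 without RasV12 GFP+ 1, 2 or 3). Ppbp, another chemokine of platelets, was low, with 0, 1.6 and 1 in control and 33, 25.2 and 15.7 in RasV12 libraries (log2FC 3.83 ± 0.81, adjusted p = 0.0178, but 0.0533 to 0.0566 without RasV12 GFP+ 2 or Control GFP+ 1, 0.493 after quantile normalization, 0.118 with no filter and 0.199 in the 12-library fit). Cxcl5, which draws neutrophils, rose from 51.3 ± 83.7 to 1048 ± 229.7 (log2FC 6.66 ± 1.72, adjusted p = 0.036, but 0.0807 to 0.127 without RasV12 GFP+ 1, 2 or 3 or Control GFP+ 3, 0.058 with no filter, 0.0886 in the 12-library fit and 0.0629 with sex as a covariate).

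Of the other growth factors, their receptors and the IGF-binding proteins, 8 of 28 tested genes were higher and 3 lower, with a median of 1.23; the number higher was 4 to 8 with 1 library left out (RasV12 GFP+ 1, 2 or 3) and 5 to 9 under the other settings. Lower calls, 10.7% of the tested genes, were near the 10.3% of all genes. Igfbp2 (chr1:72824503-72852474) had 3046, 1646 and 1005 in control and 89729.6, 137685 and 129791 in RasV12 libraries. RasV12 GFP+ 1 was the lowest of its group and still far above Control GFP+ 1, the highest control (log2FC 6.09 ± 0.41, adjusted p = 0.000609). Igfbp4 had 156, 1549 and 1075 in control and 32406, 77229 and 65076 in RasV12 libraries (log2FC 6.42 ± 0.86, adjusted p = 0.00402). Igfbp5 had 852, 262 and 702 in control and 18283, 38826 and 21634 in RasV12 libraries (log2FC 5.52 ± 0.51, adjusted p = 0.00153, but 0.0741 in the 12-library fit). Igfbp3, of the same family, had 2527, 6687 and 2643 in control and 8032, 3315 and 14391 in RasV12 libraries. Its groups overlapped and it did not pass (log2FC 1.03 ± 0.61, adjusted p = 0.286). Lif, leukemia inhibitory factor, had 2 control reads and 849.9, 453 and 561 in RasV12 libraries (1228-fold higher, 95% interval 339.9 to 10147; log2FC 8.72 ± 0.86, adjusted p = 0.00184). Fgf7, a growth factor of mesenchymal cells, had 224, 272 and 106 in control and 0, 0 and 1.8 in RasV12 libraries and fell to almost no reads (log2FC -7.05 ± 0.95, adjusted p = 0.00412). Pdgfrb, the receptor of pericytes and fibroblasts, had 600.4, 270.3 and 622 in control and 0, 3.4 and 13.6 in RasV12 libraries and fell as well (log2FC -6.86 ± 1.19, adjusted p = 0.00879).

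Inhibitors of cyclin-dependent kinases and targets of p53 were mostly higher. Of this list, 16 of 22 tested genes were higher and 2 lower, with a median of 2.65, and 13 of the 16 higher calls held with each library left out; the number lower was 0 to 3 with 1 library left out (RasV12 GFP+ 2 or 3 or Control GFP+ 1, 2 or 3) and 1 to 2 under the other settings. Cdkn1a, which encodes p21, had 10746, 6036 and 3468 in control and 65111, 49161 and 29545 in RasV12 libraries. The lowest RasV12 library, number 3, lay above the highest control (log2FC 2.905 ± 0.47, adjusted p = 0.00687). Cdkn2a had no control read and 444, 354 and 227 in RasV12 libraries (at least 432-fold higher; log2FC 8.37 ± 0.84, adjusted p = 0.00197). The gene's value does not separate its products p16 and ARF. Its neighbour Cdkn2b, which encodes p15, had 37.4, 3.2 and 57 in control and 12474, 10117 and 10374 in RasV12 libraries (log2FC 9.02 ± 0.95, adjusted p = 0.00229). Ccng1, cyclin G1, a p53 target, had 1042, 1493 and 1017 in control and 12586, 8834 and 11434 in RasV12 libraries. The spread was small in both groups (log2FC 3.21 ± 0.24, adjusted p = 0.000858). Plk2, a polo-like kinase induced by p53, had 824, 431 and 453 in control and 13967, 10673 and 9985 in RasV12 libraries and little spread too (log2FC 4.39 ± 0.31, adjusted p = 0.000761). Bax, which opens mitochondria in cell death, rose from 1283 ± 157 to 4334 ± 1065 (log2FC 1.74 ± 0.25, adjusted p = 0.00488). Perp rose from 594 ± 469 to 8679 ± 1546 (log2FC 4.13 ± 0.52, adjusted p = 0.00352), and Fas, a death receptor, from 226 ± 87.2 to 2735 ± 1146 (log2FC 3.59 ± 0.46, adjusted p = 0.00353). Trp53 itself rose from 364 ± 76.4 to 1698 ± 949 (log2FC 2.103 ± 0.43, adjusted p = 0.016, but 0.129 in the 12-library fit). Gadd45b, a stress gene of the same list, fell from 579 ± 235 to 97.1 ± 63 (log2FC -2.66 ± 0.62, adjusted p = 0.0254, but 0.0617 to 0.0869 without RasV12 GFP+ 2 or 3 or Control GFP+ 1 or 3 and 0.45 in the 12-library fit).

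Some genes that drive the cell cycle were higher beside these inhibitors. Of the G1 and S phase genes, 5 of 13 tested genes were higher and none lower, with a median of 3.77; the number higher was 3 to 7 with 1 library left out (RasV12 GFP+ 2 or 3). Ccnd1, cyclin D1, had 120.0, 216 and 169.9 in control and 9738, 8068 and 9292 in RasV12 libraries (log2FC 5.77 ± 0.29, adjusted p = 0.000341). Ccnd2, cyclin D2, had 567, 914 and 314 in control and 9965, 11508 and 13279.7 in RasV12 libraries (log2FC 4.39 ± 0.396, adjusted p = 0.00144). Neither gene had overlap, and RasV12 libraries were close together. Their partner kinase Cdk6 rose from 24.4 ± 7.87 to 452 ± 58.9 (log2FC 4.19 ± 0.61, adjusted p = 0.00517). Of the replication genes, 3 of 17 tested genes were higher and none lower, with a median of 2.73; the number higher was 2 to 5 with 1 library left out (Control GFP+ 2) and 2 to 6 under the other settings. Cdt1, which loads the replicative helicase, had no control read and 294, 179 and 221 in RasV12 libraries (at least 306-fold higher; log2FC 7.83 ± 0.82, adjusted p = 0.00222). Mki67, the usual proliferation marker, had 0, 11.2 and 105 in control and 498, 307 and 342 in RasV12 libraries and did not pass (log2FC 5.11 ± 1.66, adjusted p = 0.074). Of the mitosis genes, 8 of 21 tested genes were higher and 1 lower, with a median of 4.17; the number higher was 4 to 10 with 1 library left out (RasV12 GFP+ 1, 2 or 3). Cdc20, which activates the anaphase-promoting complex, had no control read and 153, 266 and 449 in RasV12 libraries (at least 397-fold higher; log2FC 8.05 ± 0.88, adjusted p = 0.00243). Plk1, the mitotic polo-like kinase, had none and 114, 63.6 and 177 (at least 166-fold higher; log2FC 6.78 ± 0.83, adjusted p = 0.0033), and Aurkb, a kinase of chromosome segregation, none and 118, 155 and 188 (at least 204-fold higher; log2FC 7.25 ± 0.799, adjusted p = 0.00252). Cdk1, the mitotic kinase, had 0, 31.3 and 0 in control and 247, 203 and 580.5 in RasV12 libraries (log2FC 6.599 ± 1.56, adjusted p = 0.0266, but 0.0586 to 0.101 without RasV12 GFP+ 1, 2 or 3 or Control GFP+ 1 or 3). The lower gene was Anln, which acts in cytokinesis and is also made by myelinating cells, with 1503, 2233 and 1772 in control and 22.1, 243 and 159.5 in RasV12 libraries (log2FC -4.23 ± 0.87, adjusted p = 0.0164).

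Mitosis genes that rose together were compared in their promoters, read from the RefSeq table for GRCm38.p6 as the 250 bases before the gene's start. CCAAT letters are a known feature of such promoters. Of the 8 higher mitosis genes, 6 had a row there, and all 6 held CCAAT or its other strand ATTGG, which 33.8% of all 32817 windows of this length hold. TTTGAA or TTCAAA, the core letters of a cell cycle element, were found in 2 of the 6, Cdc20 and Cdk1, and in 5245 of all windows. A match describes letters, not a bound site. The windows of 3 genes are shown with the CCAAT matches of either strand in capitals: Cdc20 (chr4:118437344-118437593, minus strand), Plk1 (chr7:122159185-122159434, plus strand) and Cdk1 (chr10:69352913-69353162, minus strand). The match nearest to the start ends 3 bases before it in Cdc20, 9 in Plk1 and 43 in Cdk1. Cdk1 was called with the limits given above.
Cdc20: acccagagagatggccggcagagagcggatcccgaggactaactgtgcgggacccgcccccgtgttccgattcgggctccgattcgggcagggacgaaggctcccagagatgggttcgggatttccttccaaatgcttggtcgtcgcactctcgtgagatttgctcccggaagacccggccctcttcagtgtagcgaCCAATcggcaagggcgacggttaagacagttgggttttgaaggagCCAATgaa
Plk1: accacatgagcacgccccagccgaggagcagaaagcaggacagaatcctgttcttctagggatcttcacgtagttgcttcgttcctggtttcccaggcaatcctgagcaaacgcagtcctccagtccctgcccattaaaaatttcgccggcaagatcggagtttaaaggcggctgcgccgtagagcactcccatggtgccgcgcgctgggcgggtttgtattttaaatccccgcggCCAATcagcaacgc
Cdk1: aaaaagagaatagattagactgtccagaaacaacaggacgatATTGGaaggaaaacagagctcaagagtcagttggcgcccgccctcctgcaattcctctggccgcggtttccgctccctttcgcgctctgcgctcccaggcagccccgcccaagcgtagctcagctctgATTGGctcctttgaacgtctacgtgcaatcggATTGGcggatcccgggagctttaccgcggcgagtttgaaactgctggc

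**Figure D2:**
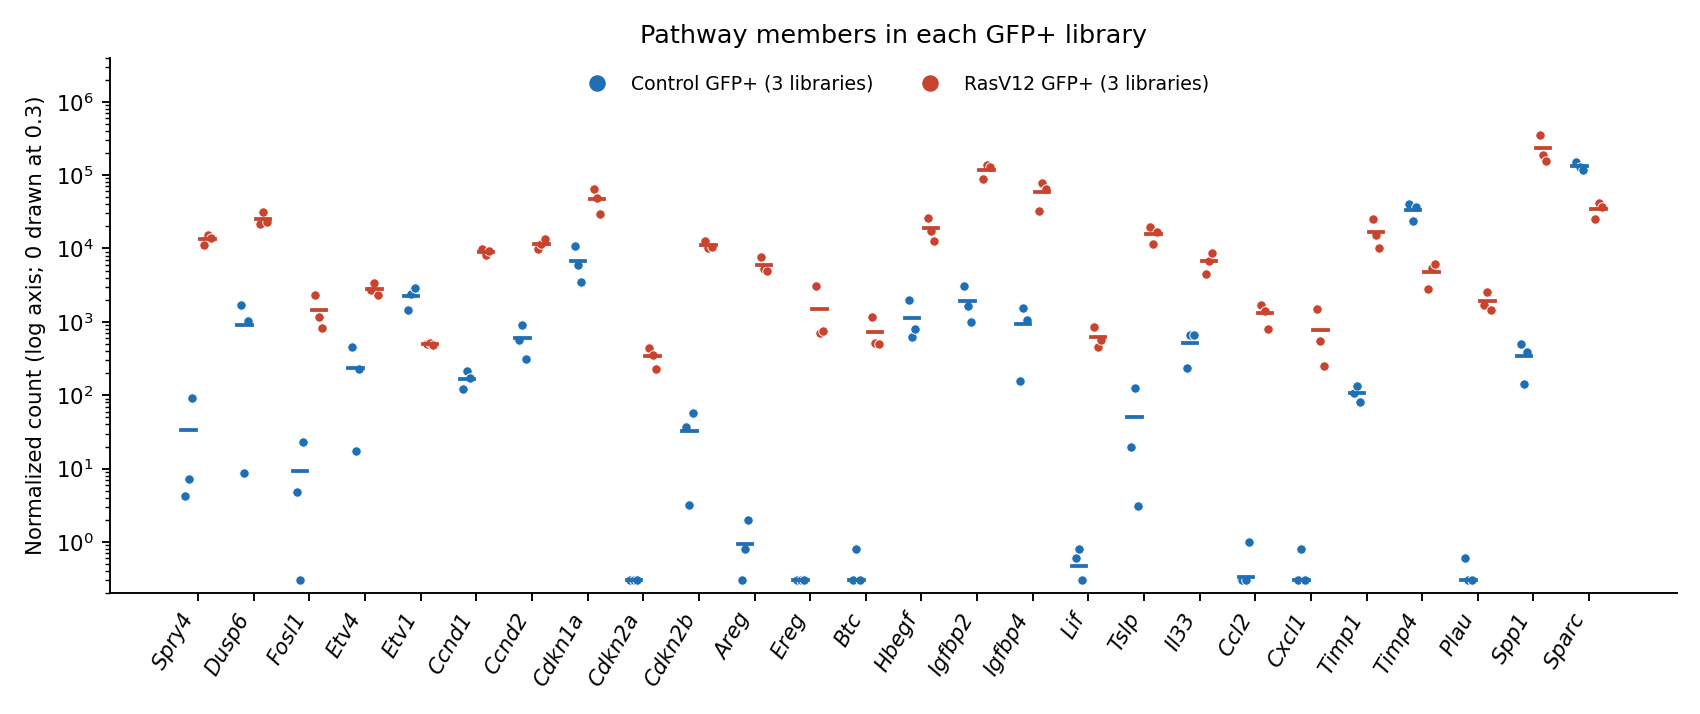
Normalized count (log axis, with 0 drawn at 0.3) of 26 named genes in each GFP+ library, blue for the 3 control and red for the 3 RasV12 libraries; points are libraries and short bars are group means. For each of these genes the groups do not overlap; Etv1, Timp4 and Sparc are lower and the others higher in RasV12 cells.

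The plot of single libraries also shows how unequal the spread was. Control libraries lay far apart for Dusp6 and Etv4, while Ccnd1 and Igfbp2 had a smaller spread in both groups.

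Most chemokine genes that could be tested were higher. Of this list, 8 of 11 tested genes were higher and none lower, with a median of 5.44, and 8 further members did not pass the filter on low values; the number higher was 5 with no filter and 5 with a filter at 50. Ccl2, which draws monocytes, had 0, 0 and 1 in control and 1703, 1400.4 and 811 in RasV12 libraries. This rests on 1 control read (4914-fold higher, 95% interval 882 to 194114; log2FC 9.95 ± 0.86, adjusted p = 0.00125). Its neighbour Ccl7 had no control read and 299, 178 and 104 in RasV12 libraries (at least 244-fold higher; log2FC 7.47 ± 0.86, adjusted p = 0.00282). Cxcl1, a neutrophil chemokine, had 0, 0.8 and 0 in control and 1503, 556 and 252 in RasV12 libraries. RasV12 GFP+ 1 was the highest of its group by a wide margin (2898-fold higher, 95% interval 520.0 to 114505; log2FC 8.94 ± 1.02, adjusted p = 0.00276). Cxcl3 had no control read and 125, 40.1 and 61.9 in RasV12 libraries (at least 100.2-fold higher; log2FC 6.103 ± 0.82, adjusted p = 0.00414). Cxcl2 had no control read either and 91.7, 16.6 and 14.7, the lowest levels of the 3 (at least 52.7-fold higher; log2FC 4.88 ± 0.93, adjusted p = 0.0123, but 0.151 after quantile normalization and 0.0688 with no filter). RasV12 GFP+ 1 led in all of these chemokines and in Areg, Ereg and Btc. It also had the highest sum over the dissociation genes, and the part of that in these levels was not tested.

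The windows of the chemokines were searched for a form of the NF-kappaB site, GGG with TTTCC after any 2 bases, and for its other strand, GGAAA with CCC after any 2 bases. Of the 8 higher chemokines, 4 had a row in the RefSeq table, and 3 of these, Cxcl1, Cxcl2 and Cxcl3, held the letters. Of all 32817 windows, 464 (1.41%) did. AP-1 letters (TGANTCA) were in none of these 4, in none of 3 higher EGF family genes with a row in none of 5 cytokine genes and in 1 of 6 proteolysis genes, Mmp3 (77.6-fold higher, 95% interval 13.7 to 3089; log2FC 3.97 ± 0.83, adjusted p = 0.0174, but 0.0528 to 0.0545 without Control GFP+ 1 or 2, 0.349 after quantile normalization, 0.105 with no filter and 0.105 in the 12-library fit), against 6.75% of all windows. The 3 chemokine windows with an NF-kappaB match are shown with the matches in capitals: Cxcl1 (chr5:90890995-90891244, plus strand), Cxcl2 (chr5:90903649-90903898, plus strand) and Cxcl3 (chr5:90785851-90786100, plus strand). The nearest match ends 61 bases before the start in Cxcl1, 68 in Cxcl2 and 63 in Cxcl3, and Cxcl1 and Cxcl2 hold a second one. Cxcl2 was called with the limits given above. The 3 genes lie in the stretch of chromosome 5 described above, and their windows share GGGAATTTCC with like letters around it. Their matches are therefore not 3 independent ones to set against the 1.41% of all windows.
Cxcl1: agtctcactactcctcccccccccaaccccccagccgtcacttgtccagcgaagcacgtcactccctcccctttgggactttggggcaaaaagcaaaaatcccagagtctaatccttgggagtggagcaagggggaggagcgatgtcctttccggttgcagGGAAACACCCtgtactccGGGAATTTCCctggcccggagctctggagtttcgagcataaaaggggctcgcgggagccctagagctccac
Cxcl2: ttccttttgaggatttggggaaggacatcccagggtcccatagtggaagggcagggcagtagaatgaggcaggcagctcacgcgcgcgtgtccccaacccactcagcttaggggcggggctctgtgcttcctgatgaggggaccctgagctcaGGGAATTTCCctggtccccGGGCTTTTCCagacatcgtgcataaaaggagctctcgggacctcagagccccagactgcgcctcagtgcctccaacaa
Cxcl3: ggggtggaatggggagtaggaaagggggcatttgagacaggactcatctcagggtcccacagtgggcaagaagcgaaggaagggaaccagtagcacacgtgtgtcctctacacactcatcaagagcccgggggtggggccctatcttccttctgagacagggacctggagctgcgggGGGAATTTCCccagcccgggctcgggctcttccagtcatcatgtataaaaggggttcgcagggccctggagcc

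Of cytokines and genes of prostaglandin synthesis, 6 of 13 tested genes were higher and 1 lower, with a median of 1.76; the number lower was 0 to 1 with 1 library left out (RasV12 GFP+ 1, 2 or 3 or Control GFP+ 3) and 0 to 1 under the other settings. Tslp, thymic stromal lymphopoietin, an epithelial cytokine that acts on dendritic cells, had 19.6, 128 and 3.1 in control and 19374, 11554 and 16701 in RasV12 libraries. The controls stayed near 0 in comparison (log2FC 9.45 ± 1.15, adjusted p = 0.00323). Il33, an alarm cytokine of glia and epithelia, was present in control cells, with 232, 666 and 654 in control and 4465, 6761 and 8772 in RasV12 libraries. It rose in every RasV12 library (log2FC 3.78 ± 0.48, adjusted p = 0.00361, but 0.105 in the 12-library fit). Of the enzymes that lead to prostaglandin E2, Ptgs2 and Ptges rose. Ptgs2, which encodes COX-2, had 0, 0.8 and 1 in control and 2019, 1395 and 1666 in RasV12 libraries (3349.5-fold higher, 95% interval 927 to 27661; log2FC 10.09 ± 0.79, adjusted p = 0.000961). Ptges, the synthase after it, had 95.6, 0.8 and 6.1 in control and 5729.9, 3246 and 5092 in RasV12 libraries (log2FC 8.73 ± 1.37, adjusted p = 0.00652). Csf1, the macrophage growth factor, rose from 453 ± 205 to 1413 ± 193 (log2FC 1.76 ± 0.44, adjusted p = 0.032, but 0.0782 to 0.111 without RasV12 GFP+ 1, 2 or 3, 0.069 with no filter and 0.127 in the 12-library fit). Il1a, Il1b, Il6 and Tnf did not pass the filter on low values.

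Genes that cut and remodel matrix rose more often than they fell. Of this list, 8 of 17 tested genes were higher and 3 lower, with a median of 3.97, and 6 of the 8 higher calls held with each library left out; the number lower was 1 in the 12-library fit. Plau, the urokinase that turns plasminogen into plasmin, had 0.6, 0 and 0 in control and 1720.1, 2537 and 1473 in RasV12 libraries. The controls held 1 read in all (7157-fold higher, 95% interval 1284 to 282716; log2FC 10.63 ± 0.795, adjusted p = 0.000816). Hpse, heparanase, which cuts heparan sulfate chains, had no control read and 1278, 4942 and 1582 in RasV12 libraries (at least 3066-fold higher; log2FC 11.07 ± 0.89, adjusted p = 0.00107). Mmp14, a membrane-bound metalloprotease, rose from 591 ± 319 to 3593 ± 716 (log2FC 2.77 ± 0.48, adjusted p = 0.00906). Of the inhibitors of these enzymes, Serpine2 and Timp1 rose and Timp4 fell. Serpine2, a serpin that blocks urokinase and thrombin, had 9051, 7198 and 6722 in control and 52534, 60163 and 69784 in RasV12 libraries (log2FC 2.99 ± 0.19, adjusted p = 0.000578). Timp1, an inhibitor of metalloproteases, had 106, 136 and 81.4 in control and 25024, 15039 and 10219 in RasV12 libraries (log2FC 7.201 ± 0.39, adjusted p = 0.000422). Timp4, its relative and abundant in the control cells, had 40192, 23518 and 36398 in control and 2764, 5418 and 6169 in RasV12 libraries and was lower (log2FC -2.85 ± 0.36, adjusted p = 0.00353, but 0.399 in the 12-library fit). Adamts1 and Adamts4, both proteases of proteoglycans, went opposite ways. Adamts1 had 789.9, 69.8 and 139 in control and 5219, 4876 and 5639 in RasV12 libraries (log2FC 4.72 ± 0.83, adjusted p = 0.00916). Adamts4, which oligodendrocytes also make, had 1431, 1506 and 1629.8 in control and 136, 73.4 and 84.4 in RasV12 libraries (log2FC -3.995 ± 0.38, adjusted p = 0.00169).

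Of the matrix glycoproteins and proteoglycans, 8 of 17 tested genes were higher and 2 lower, with a median of 2.59; the number higher was 5 to 8 with 1 library left out (RasV12 GFP+ 2 or 3), and the number lower was 1 after quantile normalization and 1 in the 12-library fit. Thbs2, thrombospondin 2, had no control read and 1237, 844 and 834 in RasV12 libraries (at least 1264-fold higher; log2FC 9.901 ± 0.82, adjusted p = 0.00115). Fn1, fibronectin, had 745, 1792 and 1003 in control and 24099.9, 8705 and 13589 in RasV12 libraries (log2FC 3.68 ± 0.46, adjusted p = 0.00349). Tnc, tenascin C, had 950.3, 415 and 936 in control and 10416, 15911 and 23189 in RasV12 libraries (log2FC 4.45 ± 0.43, adjusted p = 0.00179). The lower members were Sparc and Sparcl1, both made by astrocytes. Sparc had 151101, 128062 and 118878 in control and 25014, 41643 and 37104 in RasV12 libraries (log2FC -1.97 ± 0.23, adjusted p = 0.00312, but 0.957 after quantile normalization), and Sparcl1 fell from 68851 ± 17036 to 8839 ± 2168 (log2FC -2.96 ± 0.27, adjusted p = 0.0015, but 0.354 in the 12-library fit). Of the collagens, 3 of 15 tested genes were higher and 1 lower, with a median of 0.16; the number higher was 2 to 5 with 1 library left out (Control GFP+ 1), and the number lower was 0 to 1 with 1 library left out (RasV12 GFP+ 1 or 2 or Control GFP+ 1) and 0 to 2 under the other settings, most with array weights. Col18a1, the basement membrane collagen that yields endostatin, had 67.7, 44.1 and 166 in control and 2148, 2162 and 2114 in RasV12 libraries, with little spread in the RasV12 group (log2FC 4.74 ± 0.53, adjusted p = 0.00257). Of integrins, laminins and a hyaluronan receptor, 10 of 24 tested genes were higher and 1 lower, with a median of 2.14; the number higher was 5 to 11 with 1 library left out (RasV12 GFP+ 1, 2 or 3). Itgb1, the common beta subunit of matrix receptors, rose from 2465 ± 319 to 10013 ± 2792 (log2FC 1.995 ± 0.25, adjusted p = 0.0033). Lamb1 and Lamc1, chains of most laminins, rose too, Lamb1 from 226 ± 104 to 2396 ± 562 (log2FC 3.498 ± 0.45, adjusted p = 0.00362) and Lamc1 from 584 ± 209 to 2696 ± 544 (log2FC 2.25 ± 0.35, adjusted p = 0.00645). Itgb8, a subunit by which astrocytes activate TGF-beta, fell from 1559.6 ± 308 to 183 ± 108 (log2FC -3.24 ± 0.501, adjusted p = 0.00617).

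Of genes linked to the mesenchymal state, 8 of 21 tested genes were higher and 2 lower, with a median of 1.41, and all 8 higher calls held with each library left out; the number lower was 1 to 2 with 1 library left out (RasV12 GFP+ 1, 2 or 3 or Control GFP+ 3) and 4 after quantile normalization. The members that moved were of both epithelial and mesenchymal kind. Runx1, a transcription factor, had 2.4, 0 and 11.2 in control and 926, 668 and 485 in RasV12 libraries (log2FC 7.598 ± 1.12, adjusted p = 0.00531). Prrx1, a homeobox factor of mesenchyme, had 64.7, 13.6 and 171 in control and 2933, 1992 and 1827 in RasV12 libraries (log2FC 5.33 ± 0.88, adjusted p = 0.0075). Cdh1, E-cadherin, the adhesion protein of epithelia, was higher too, with 1.2, 12.8 and 1 in control and 607, 2524 and 2494 in RasV12 libraries (log2FC 8.64 ± 1.09, adjusted p = 0.00349). Zeb2, a repressor of Cdh1 in other cells, had 1322, 2978 and 2619.6 in control and 599, 501 and 583 in RasV12 libraries and was lower (log2FC -1.96 ± 0.36, adjusted p = 0.0107). Anxa1, a membrane-binding annexin, had 252, 157 and 235 in control and 6544, 7899.8 and 7339.6 in RasV12 libraries, a wide gap with little spread (log2FC 5.097 ± 0.27, adjusted p = 0.000399). Lgals1, galectin 1, rose from 398 ± 268 to 4691 ± 1323 (log2FC 3.72 ± 0.48, adjusted p = 0.0038), and Vim, vimentin, from 4299 ± 549 to 11469.9 ± 2158 (log2FC 1.41 ± 0.21, adjusted p = 0.00541, but 0.299 in the 12-library fit).

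The hedgehog list was called no more often than all genes, with 9.09% of its tested genes higher and 9.09% lower. Within it a ligand and a target went opposite ways. Of its genes, 1 of 11 tested genes was higher and 1 lower, with a median of -0.08; the number higher was 1 to 2 with 1 library left out (Control GFP+ 2) and 1 to 3 under the other settings. Dhh, desert hedgehog, a ligand known from Schwann cells and testis, had no control read and 1606, 1476 and 1502 in RasV12 libraries. The spread between them was small (at least 1995-fold higher; log2FC 10.58 ± 0.78, adjusted p = 0.000805). Ptch1, the receptor that is also a direct target of the pathway, had 1884, 1882 and 1816 in control and 236, 136 and 230.3 in RasV12 libraries and was lower (log2FC -3.25 ± 0.33, adjusted p = 0.00203). Gli1, the usual readout of the pathway, did not pass the filter, with 147, 0.8 and 159.7 in control and 0.5, 0 and 0 in RasV12 libraries.

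Calls in the Wnt, Notch and TGF-beta lists went in both directions, with wide spread. Higher calls in the Notch list, 1 of 17, were no more frequent than the 10.8% of all genes. Nor were lower calls in the TGF-beta and BMP list, 3 of 30, more frequent than the 10.3% of all genes. Of the Wnt genes, 6 of 21 tested genes were higher and 3 lower, with a median of 1.79; the number higher was 1 to 8 with 1 library left out (RasV12 GFP+ 1, 2 or 3) and 2 in the 12-library fit, and the number lower was 1 to 3 with 1 library left out (RasV12 GFP+ 3), 1 with array weights and 1 in the 12-library fit. Wnt7a, a ligand that acts on brain vessels and glia, had 315, 472 and 551 in control and 0, 53.3 and 0.7 in RasV12 libraries and was lower (log2FC -6.59 ± 1.598, adjusted p = 0.029, but 0.0587 to 0.0987 without RasV12 GFP+ 1 or 3 or Control GFP+ 1, 2 or 3, 0.135 with array weights, 0.14 in the 12-library fit and 0.0504 with sex as a covariate). Nkd1, a feedback inhibitor, fell from 677 ± 235 to 97.7 ± 18.1 (log2FC -2.74 ± 0.45, adjusted p = 0.00751, but 0.237 in the 12-library fit). Of the Notch genes, 1 of 17 tested genes was higher and 3 lower, with a median of 1.01; the number higher was 0 to 2 with 1 library left out (RasV12 GFP+ 1, 2 or 3 or Control GFP+ 2 or 3), 2 after rescaling by the total and 0 with no filter, and the number lower was 1 to 3 with 1 library left out (RasV12 GFP+ 2 or Control GFP+ 1, 2 or 3), 1 with no filter and 1 in the 12-library fit. Lfng, which modifies Notch receptors, fell from 1406 ± 424 to 289 ± 71.5 (log2FC -2.26 ± 0.36, adjusted p = 0.00708, but 0.379 in the 12-library fit). Of the TGF-beta and BMP genes, 10 of 30 tested genes were higher and 3 lower, with a median of 2.66; the number higher was 1 to 12 with 1 library left out (RasV12 GFP+ 1, 2 or 3) and 6 with no filter, and the number lower was 1 to 3 with 1 library left out (RasV12 GFP+ 1, 2 or 3) and 0 in the 12-library fit. The higher call that held without each library was that of Chrdl1, an antagonist that binds BMPs, with 0.6, 0 and 0 in control and 884, 3046 and 2484 in RasV12 libraries. RasV12 GFP+ 1 was the lowest of its group (8235-fold higher, 95% interval 1478 to 325301; log2FC 10.65 ± 0.88, adjusted p = 0.00115). Bmp4, a ligand it can bind, had 177, 167 and 126 in control and 9.5, 13.8 and 21.1 in RasV12 libraries and was lower (log2FC -3.37 ± 0.79, adjusted p = 0.0263, but 0.0545 to 0.0927 without RasV12 GFP+ 1, 2 or 3 or Control GFP+ 1 and 0.372 in the 12-library fit).

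**Figure D3:**
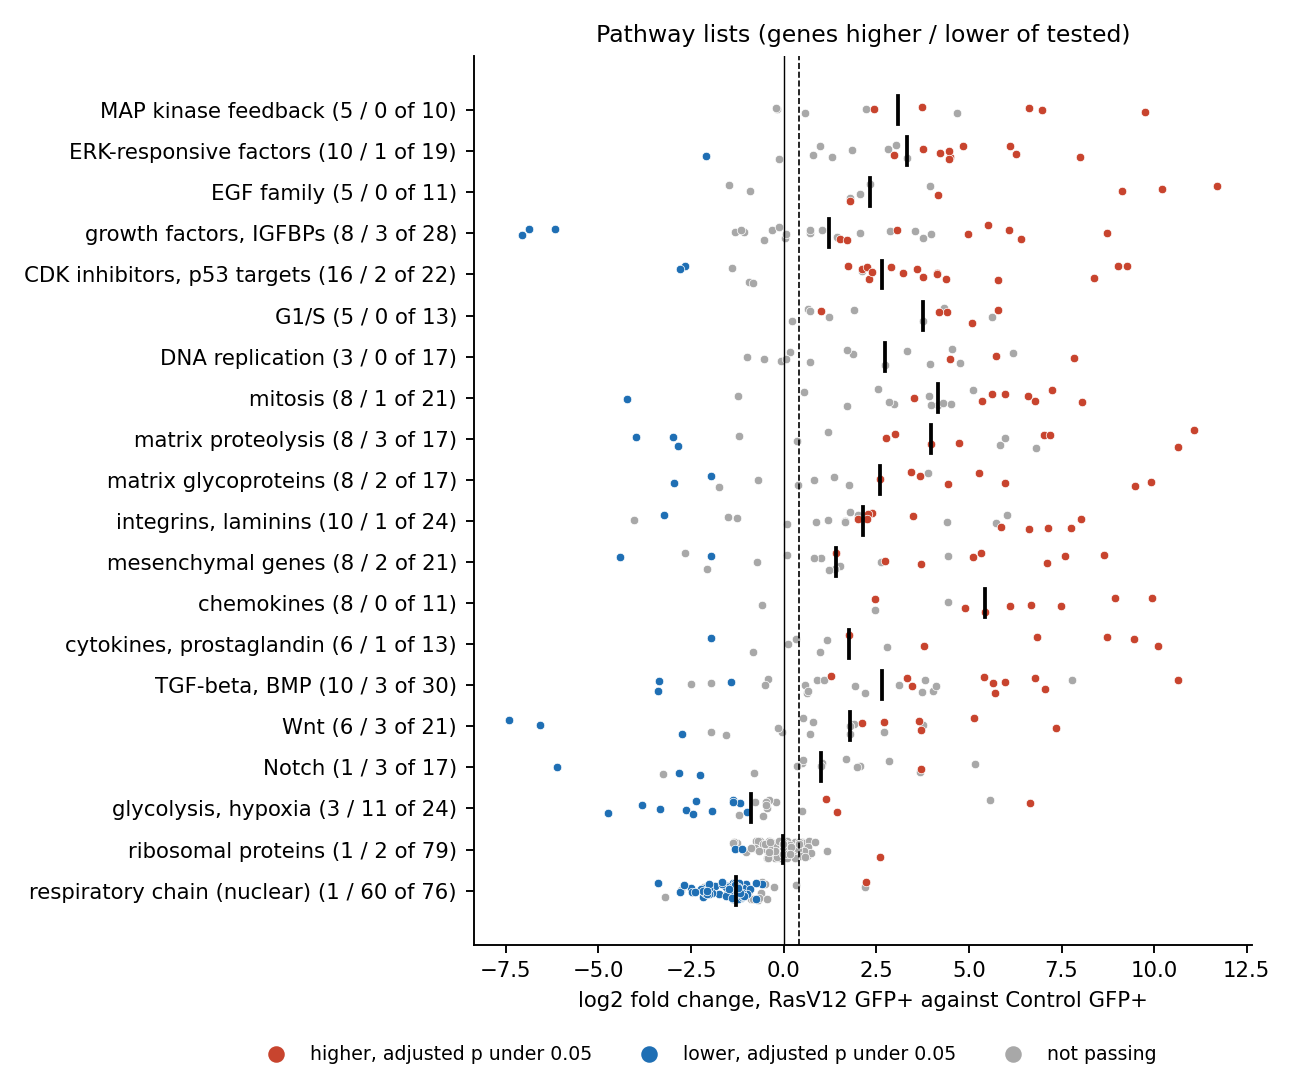
Log2 fold change, RasV12 GFP+ against Control GFP+, of every tested gene in 20 pathway lists; each point is a gene, red if higher, blue if lower and grey if not passing, the black bar is the list's median and the dashed line the median of all tested genes (0.40). Chemokines have the highest median (5.44), ribosomal proteins gather around 0 and nuclear respiratory chain genes lie mostly below 0.

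The plot of pathway lists shows that most medians lay above that of all genes, with members spread over many log2 units. Secreted peptides and vessel factors held further large differences. Gal (chr19:3409915-3414544), which encodes the neuropeptide galanin, had 2.4, 3.2 and 1 in control and 17067, 12057 and 8806 in RasV12 libraries. The gap was wide, and all RasV12 libraries were high (log2FC 11.96 ± 0.54, adjusted p = 0.000341). Pdyn, prodynorphin, had no control read and 104, 175 and 303 in RasV12 libraries (at least 267-fold higher; log2FC 7.48 ± 0.86, adjusted p = 0.00283). Chgb, a protein of neuroendocrine granules, fell from 3312 ± 1348 to 89.5 ± 61.6 (log2FC -5.51 ± 0.77, adjusted p = 0.00456, but 0.134 in the 12-library fit). Over the neuropeptide list 3 of 11 tested genes were higher and 1 lower, with a median of 1.34; the number lower was 0 to 3 under the other settings, fewest in the 12-library fit, most after quantile normalization. Of the angiogenic factors, 3 of 13 tested genes were higher and 2 lower, with a median of 1.47; the number higher was 2 to 5 under the other settings, and the number lower was 1 in the 12-library fit. Angpt2, a ligand that loosens vessels, had 0.6, 0.8 and 7.1 in control and 3959, 4375 and 5069 in RasV12 libraries (log2FC 10.604 ± 0.81, adjusted p = 0.000858). Edn1, endothelin 1, had 134, 1346 and 780.3 in control and 0.9, 0 and 0 in RasV12 libraries and was lower (2305-fold lower, 95% interval 638 to 19045; log2FC -8.72 ± 1.15, adjusted p = 0.00388). Vegfa, the main vessel growth factor, rose from 962 ± 473 to 2501 ± 469.5 (log2FC 1.47 ± 0.37, adjusted p = 0.0343, but 0.0768 to 0.114 without RasV12 GFP+ 1, 2 or 3 or Control GFP+ 2 or 3, 0.0716 with no filter, 0.462 in the 12-library fit and 0.0501 with sex as a covariate).

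Among molecules that face phagocytes and T cells, 7 of 16 tested genes were higher and 1 lower, with a median of 1.54; the number higher was 4 to 8 with 1 library left out (RasV12 GFP+ 2) and 3 in the 12-library fit. Cd80, a costimulator, had no control read and 256, 209 and 179.5 in RasV12 libraries (at least 276-fold higher; log2FC 7.74 ± 0.81, adjusted p = 0.00222). Cd274, which encodes PD-L1, had none and 227, 76.8 and 209.9 (at least 236-fold higher; log2FC 7.28 ± 0.88, adjusted p = 0.00316). Nt5e, the enzyme CD73 that makes adenosine, had 14.8, 0.8 and 13.2 in control and 396, 1022 and 698 in RasV12 libraries (log2FC 6.47 ± 1.08, adjusted p = 0.00775). Cd47, the signal that restrains phagocytes, had 6681, 3153 and 5056 in control and 4078, 4405 and 4556 in RasV12 libraries and did not pass (log2FC -0.13 ± 0.29, adjusted p = 0.787), and its receptor Sirpa, also made by neurons, fell from 5109 ± 588 to 725 ± 210.3 (log2FC -2.85 ± 0.28, adjusted p = 0.00189). Of the interferon-stimulated genes, 3 of 15 tested genes were higher and none lower, with a median of 1.99; the number higher was 3 to 5 with 1 library left out (Control GFP+ 2) and 6 with array weights. Ifitm3, a membrane protein that blocks virus entry, had 991, 2032 and 815 in control and 12926, 11409 and 8754 in RasV12 libraries (log2FC 3.21 ± 0.37, adjusted p = 0.00288). Of the MHC class I genes, 2 of 10 tested genes were higher and none lower, with a median of 0.75; the number higher was 2 to 4 with 1 library left out (RasV12 GFP+ 1) and 1 in the 12-library fit. B2m, their light chain, had 4706, 4551 and 3888 in control and 8938, 11969.8 and 14123 in RasV12 libraries (log2FC 1.39 ± 0.22, adjusted p = 0.00666).

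Further lists held single large changes. Of the integrated stress response genes, 3 of 17 tested genes were higher and 2 lower, with a median of 1.11; the number higher was 2 to 6 with 1 library left out (Control GFP+ 1 or 2) and 3 to 7 under the other settings, most after rescaling by the total, and the number lower was 0 in the 12-library fit. Gdf15, a stress-induced hormone of the TGF-beta family, had 1.2, 0.8 and 0 in control and 2148, 2799 and 2183 in RasV12 libraries (3040.2-fold higher, 95% interval 1040.1 to 14744; log2FC 10.54 ± 0.76, adjusted p = 0.000761). Psat1, an enzyme of serine synthesis in the same list, fell from 3826 ± 1023 to 815 ± 319 (log2FC -2.28 ± 0.39, adjusted p = 0.00833, but 0.124 in the 12-library fit). Of the oncofetal genes, 2 of 8 tested genes were higher and none lower, with a median of 1.02; the number higher was 1 in the 12-library fit. Hmga2, a chromatin protein of embryonic cells, had 0.6, 0 and 0 in control and 1524, 596 and 622 in RasV12 libraries (3564-fold higher, 95% interval 639 to 140774; log2FC 9.47 ± 0.89, adjusted p = 0.00164). Of the acute phase genes, 1 of 10 tested genes was higher and 2 lower, with a median of 0.90; the number higher was 1 to 3 with 1 library left out (Control GFP+ 2 or 3) and 1 to 3 under the other settings, and the number lower was 1 with a filter at 50. Cp, the copper protein ceruloplasmin, rose from 613 ± 212 to 5614 ± 2819 (log2FC 3.13 ± 0.46, adjusted p = 0.00526), while A2m, a protease trap, fell from 2372 ± 818 to 150.0 ± 102 (log2FC -4.13 ± 0.54, adjusted p = 0.00388).

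Mitochondrially encoded transcripts took a smaller share of counts in RasV12 cells. The share was 20.1%, 30.4% and 22.6% in the control libraries and 2.62%, 1.87% and 1.53% in the RasV12 libraries, 24.4% ± 5.40 against 2.005% ± 0.559. An exact two-sided permutation test gave p = 0.1, the smallest that 3 against 3 can give. By gene, none of 31 tested genes were higher and 27 lower, with a median of -4.01. Nuclear genes of the respiratory chain were lower as well, by less. Of these, 1 of 76 tested genes was higher and 60 lower, with a median of -1.30, and 43 of the 60 lower calls held with each library left out; the number higher was 0 to 2 with 1 library left out (RasV12 GFP+ 1 or 2 or Control GFP+ 2) and 0 in the 12-library fit, and the number lower was 19 in the 12-library fit. Cox8a, of cytochrome oxidase, had 41783, 36853 and 40206 in control and 4045, 3941 and 3438 in RasV12 libraries (log2FC -3.38 ± 0.16, adjusted p = 0.000341). Ndufb9, of complex I, had 15785, 18992 and 17538 in control and 3059, 2672 and 2421 in RasV12 libraries (log2FC -2.68 ± 0.18, adjusted p = 0.000585). The groups were tight and far apart for both. The higher gene was Cox6b2, a subunit form known from testis, which rose from 227 ± 93.3 to 1056 ± 429 (log2FC 2.21 ± 0.46, adjusted p = 0.0166, but 0.0594 to 0.0647 without RasV12 GFP+ 1 or 2 and 0.271 in the 12-library fit). Of the cytosolic ribosomal protein genes, 1 of 79 tested genes was higher and 2 lower, with a median of -0.01; the number higher was 2 after quantile normalization and 3 after rescaling by the total, and the number lower was 0 to 2 with 1 library left out (RasV12 GFP+ 2 or 3 or Control GFP+ 1, 2 or 3) and 0 to 3 under the other settings. The higher one was Rps27l, a relative of Rps27 induced by p53, with 1223, 903 and 906 in control and 9922, 5134 and 4484 in RasV12 libraries (log2FC 2.61 ± 0.34, adjusted p = 0.00388). Ribosomal protein genes share reads with processed pseudogenes, so their values are uncertain.

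**Figure D4:**
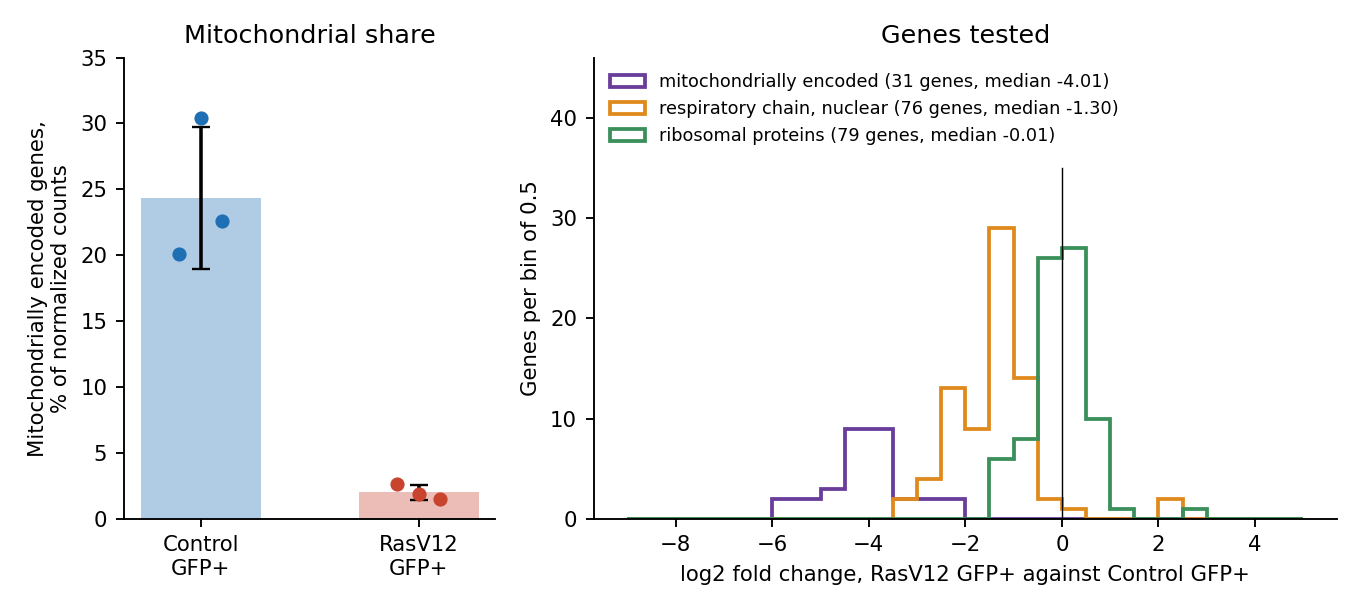
Left, share of normalized counts in mitochondrially encoded genes, with points for libraries, bars for group means and error bars for the SD (n = 3); right, number of tested genes per bin of log2 fold change (RasV12 GFP+ against Control GFP+) for mitochondrially encoded genes, nuclear respiratory chain genes and ribosomal protein genes. The medians are -4.01, -1.30 and -0.01.

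The histogram places the respiratory chain genes between the mitochondrially encoded genes and the ribosomal protein genes. Of the glycolysis and hypoxia genes, 3 of 24 tested genes were higher and 11 lower, with a median of -0.89; the number higher was 1 to 4 with 1 library left out (RasV12 GFP+ 2 or 3 or Control GFP+ 1) and 1 in the 12-library fit, and the number lower was 7 to 10 with 1 library left out (RasV12 GFP+ 2 or Control GFP+ 3), 7 after rescaling by the total and 4 in the 12-library fit. The lactate dehydrogenase subunits went apart. Ldhb, the form that favours making pyruvate, had 13388, 13966 and 11485 in control and 2573, 2169 and 2383 in RasV12 libraries and was lower (log2FC -2.44 ± 0.18, adjusted p = 0.000776). Ldha, the form that favours making lactate, rose from 6395 ± 1399 to 17794 ± 6200.1 (log2FC 1.43 ± 0.33, adjusted p = 0.0251, but 0.064 to 0.101 without RasV12 GFP+ 2 or 3 or Control GFP+ 1 and 0.186 in the 12-library fit). Slc16a3, an exporter of lactate, had no control read and 49.7, 103 and 191 in RasV12 libraries (at least 159-fold higher; log2FC 6.65 ± 0.88, adjusted p = 0.00388). Slc2a1, a glucose transporter also abundant in brain vessels, had 5520.4, 15688 and 8114 in control and 676, 451 and 804 in RasV12 libraries and was lower (log2FC -3.83 ± 0.43, adjusted p = 0.0026). Of the cholesterol genes, 1 of 18 tested genes was higher and 4 lower, with a median of -1.01; the number higher was 1 to 2 with 1 library left out (Control GFP+ 1) and 0 to 2 under the other settings, fewest in the 12-library fit, and the number lower was 1 to 4 with 1 library left out (RasV12 GFP+ 1 or 2 or Control GFP+ 1) and 2 in the 12-library fit. Apoe, the lipid carrier that astrocytes make, had 168778, 118141 and 135993 in control and 9841, 18570.1 and 13759.7 in RasV12 libraries and was lower (log2FC -3.36 ± 0.27, adjusted p = 0.00111).

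Markers of mature cerebellar cells were high in the control GFP+ cells and low in the RasV12 GFP+ cells. In a bulk sample, fewer cells of a type and less RNA per cell cannot be told apart. Of the myelin genes, 1 of 21 tested genes was higher and 20 lower, with a median of -9.40; the number higher was 0 to 1 with 1 library left out (RasV12 GFP+ 2 or 3). Their summed normalized counts were 1020009 to 1667873 in control and 10301 to 34531 in RasV12 libraries. Mag, an adhesion protein of the inner myelin face, had 35363, 18017 and 16953 in control and 139.5, 36.1 and 2.5 in RasV12 libraries (log2FC -9.71 ± 1.25, adjusted p = 0.00368). Mbp had 612198, 1053425 and 493829 in control and 588, 12259 and 3431 in RasV12 libraries, with RasV12 GFP+ 2 the highest of its group (log2FC -7.87 ± 1.02, adjusted p = 0.00373). The higher gene was Trf, transferrin, which other cells make too, with 3052, 3989.9 and 3413 in control and 7169, 16492 and 15820.4 in RasV12 libraries (log2FC 1.83 ± 0.35, adjusted p = 0.0121, but 0.0513 to 0.0526 without RasV12 GFP+ 2 or 3). Sox10, a factor of the oligodendrocyte lineage, had 977, 1139.6 and 869 in control and no read in RasV12 libraries (at least 2255-fold lower, log2FC -9.95 ± 0.81, adjusted p = 0.00111). Of the oligodendrocyte precursor genes, none of 13 tested genes were higher and 4 lower, with a median of -0.70. Olig1 had 7644, 4426 and 4679.7 in control and 1949, 1022 and 3863 in RasV12 libraries (log2FC -1.45 ± 0.497, adjusted p = 0.086). Olig2 had 2240.2, 721 and 416 in control and 609.7, 198 and 1303 in RasV12 libraries (log2FC -0.696 ± 0.86, adjusted p = 0.604). These lineage factors stayed measurable and did not pass. Gpr17, of differentiating precursors, fell from 569 ± 452 to 0.2 ± 0.346 (3293-fold lower, 95% interval 590.4 to 130149; log2FC -8.38 ± 1.15, adjusted p = 0.00436), and Enpp6, of newly formed oligodendrocytes, from 2529 ± 753 to 76.6 ± 88.2 (log2FC -5.71 ± 0.89, adjusted p = 0.00629).

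Of the astrocyte and Bergmann glia genes, none of 19 tested genes were higher and 13 lower, with a median of -2.63; the number lower was 8 in the 12-library fit. The list divided. S100b had 28033, 51722 and 36298 in control and 820.1, 1021 and 772 in RasV12 libraries (log2FC -5.44 ± 0.27, adjusted p = 0.000341). Gdf10, a Bergmann glia gene, had 19673, 9836 and 22555 in control and 25.3, 217 and 69.7 in RasV12 libraries (log2FC -7.79 ± 0.77, adjusted p = 0.00186). Aldoc, the aldolase of astrocytes and some Purkinje cells, fell from 110215 ± 16579.6 to 3534 ± 1254 (log2FC -5.03 ± 0.31, adjusted p = 0.000545). In contrast, Slc1a3, the glutamate transporter of radial and Bergmann glia, had 111492, 43261 and 81974 in control and 22269.6, 52759 and 69082 in RasV12 libraries and did not pass (log2FC -0.76 ± 0.51, adjusted p = 0.341). Fabp7, a lipid-binding protein of radial glia, had 6312, 8436 and 9443 in control and 7853, 8145 and 11938 in RasV12 libraries and did not pass (log2FC 0.201 ± 0.25, adjusted p = 0.606). Sox9, a glial transcription factor, had 3157, 719 and 2168 in control and 4333, 1834 and 2353 in RasV12 libraries (log2FC 0.64 ± 0.597, adjusted p = 0.492). Neither it nor Hopx passed (log2FC -0.87 ± 0.38, adjusted p = 0.158).

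Purkinje cell, granule cell and pan-neuronal genes were mostly lower as well. Of the Purkinje cell genes, none of 11 tested genes were higher and 10 lower, with a median of -7.08. Pcp2 had 21019.7, 16159 and 20270.3 in control and 46.5, 28.1 and 37.9 in RasV12 libraries (log2FC -8.98 ± 0.296, adjusted p = 0.000286). Car8, a binding partner of the IP3 receptor, had 12424, 7272 and 12416 in control and 0.5, 3.4 and 20.4 in RasV12 libraries (log2FC -10.96 ± 0.97, adjusted p = 0.00134). Of the granule cell genes, 1 of 13 tested genes was higher and 11 lower, with a median of -5.53; the number higher was 0 to 1 with 1 library left out (RasV12 GFP+ 2 or 3) and 0 in the 12-library fit. Cbln3, a synapse organizer, had 4223, 6122 and 4979.8 in control and 1.4, 8.6 and 19.7 in RasV12 libraries (log2FC -9.34 ± 0.83, adjusted p = 0.00137). The higher gene was Pax6, a factor of granule cell progenitors and radial glia, which rose from 722 ± 186 to 2596 ± 979 (log2FC 1.800 ± 0.36, adjusted p = 0.0152, but 0.0592 to 0.0597 without RasV12 GFP+ 2 or 3 and 0.479 in the 12-library fit). Of the synaptic and pan-neuronal genes, none of 21 tested genes were higher and 17 lower, with a median of -4.25. Rbfox3, which encodes NeuN, had 4662, 2995 and 3916 in control and 101, 92.3 and 113 in RasV12 libraries (log2FC -5.21 ± 0.303, adjusted p = 0.000513). Map2, of dendrites, did not pass (log2FC -0.99 ± 0.38, adjusted p = 0.115). Of the inhibitory interneuron genes, none of 6 tested genes were higher and 2 lower, with a median of -2.73; the number lower was 1 to 3 with 1 library left out (RasV12 GFP+ 2 or Control GFP+ 1) and 0 in the 12-library fit. Their summed counts were higher in RasV12 libraries, 1782 to 3531 against 690.4 to 1663, most of it from Kit, a growth factor receptor of several cell types, with 348, 1.6 and 206 in control and 1622, 2724 and 3447 in RasV12 libraries (log2FC 5.44 ± 1.77, adjusted p = 0.0748). Of neurotransmitter receptors and channels, 1 of 26 tested genes was higher and 11 lower, with a median of -2.27; the number higher was 1 to 2 with 1 library left out (Control GFP+ 2) and 1 to 2 under the other settings, and the number lower was 4 to 9 with 1 library left out (RasV12 GFP+ 1 or 2 or Control GFP+ 1, 2 or 3) and 7 in the 12-library fit. AMPA receptor subunits went apart. Gria1 had 8726, 8329 and 8032 in control and 646, 2333 and 2170.2 in RasV12 libraries (log2FC -2.49 ± 0.49, adjusted p = 0.014). Gria3 had 82.6, 376 and 36.6 in control and 2819, 2537 and 3845 in RasV12 libraries and was higher (log2FC 4.83 ± 0.81, adjusted p = 0.00786).

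Further cell types showed in the control libraries. Of the choroid plexus and ependyma genes, none of 14 tested genes were higher and 7 lower, with a median of -3.21; the number lower was 4 to 7 with 1 library left out (RasV12 GFP+ 3). Ttr, transthyretin, the main product of the choroid plexus, had 112212, 58459.7 and 23688 in control and 14.5, 4.6 and 8.2 in RasV12 libraries (log2FC -12.501 ± 0.65, adjusted p = 0.000374). Of the endothelial and pericyte genes, none of 15 tested genes were higher and 7 lower, with a median of -2.85. Ly6c1, an endothelial surface protein, had 2497, 8775 and 4701 in control and 3.6, 0.6 and 20 in RasV12 libraries (log2FC -9.77 ± 1.04, adjusted p = 0.0023). Flt1, a VEGF receptor, had 1752, 873 and 1101 in control and 1824, 1487 and 1861 in RasV12 libraries and did not pass (log2FC 0.53 ± 0.31, adjusted p = 0.287). Of the fibroblast and meninges genes, none of 9 tested genes were higher and 3 lower, with a median of -1.33. Of the red blood cell genes, none of 7 tested genes were higher and 5 lower, with a median of -8.51. Their summed counts were 8918 to 777416 in control and 82.9 to 519 in RasV12 libraries. Sums of astrocyte, Purkinje cell and choroid plexus genes were 356747 to 403240.0, 61593 to 73723 and 38343 to 134011 in control libraries and 59288 to 137526, 2733 to 3591 and 1311 to 3079 in RasV12 libraries. Whether these transcripts came from GFP+ cells or from RNA of other cells was not tested.

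**Figure D5:**
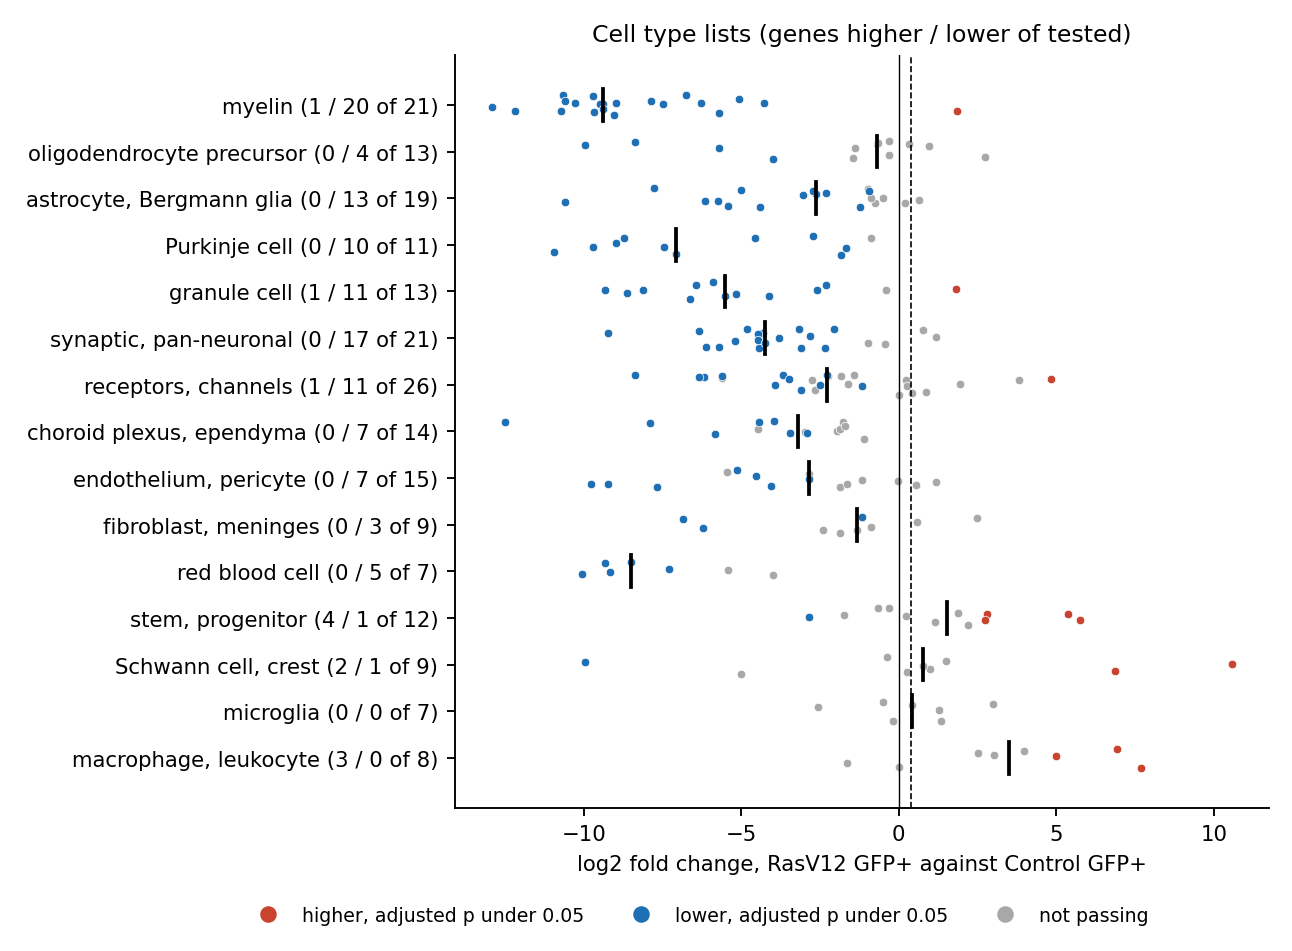
Log2 fold change, RasV12 GFP+ against Control GFP+, of every tested gene in 15 marker lists; each point is a gene, red if higher, blue if lower and grey if not passing, the black bar is the list's median and the dashed line the median of all tested genes (0.40). Myelin genes have the lowest median (-9.40), and the stem cell, Schwann cell and crest, microglia and macrophage lists have medians above that of all genes.

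The plot of marker lists shows the median of the stem cell genes above 0, with 8 of 12 values positive and 4 negative. After quantile normalization this median was 0.57, against 0.05 for all genes. Of these neural stem and progenitor genes, 4 of 12 tested genes were higher and 1 lower, with a median of 1.51; the number higher was 1 to 4 with 1 library left out (RasV12 GFP+ 1, 2 or 3) and 2 in the 12-library fit, and the number lower was 0 to 1 with 1 library left out (RasV12 GFP+ 1, 2 or 3 or Control GFP+ 1) and 0 to 2 under the other settings, most with array weights. Nes, nestin, had 147, 500.4 and 9.2 in control and 4629, 7746 and 3229.5 in RasV12 libraries, with Control GFP+ 3 apart at the low end (log2FC 5.74 ± 1.33, adjusted p = 0.0252, but 0.0729 to 0.0969 without RasV12 GFP+ 1, 2 or 3). Of the hindbrain factors, 2 of 9 tested genes were higher and none lower, with a median of 0.59; the number higher was 1 with a filter at 50. Gbx2, which sets the anterior hindbrain, had 0.6, 1.6 and 0 in control and 318, 339 and 659.5 in RasV12 libraries (606-fold higher, 95% interval 207 to 2942; log2FC 8.01 ± 0.91, adjusted p = 0.00274). En1, of the border between midbrain and hindbrain, had 0, 0 and 2 in control and 94.4, 46.4 and 65.4 in RasV12 libraries (137-fold higher, 95% interval 37.7 to 1135; log2FC 5.54 ± 0.89, adjusted p = 0.00694). En2 had 314, 477 and 173 in control and 301, 361 and 232 in RasV12 libraries and did not pass (log2FC -0.01 ± 0.502, adjusted p = 0.987). Forebrain factors were low, with list sums of 276 to 729 in control and 106 to 166 in RasV12 libraries. The number of them higher was 2, but 1 on FPKM, after quantile normalization or with no filter, and 0 with a filter at 50. Of 17 forebrain factors, 14 did not pass the filter on low values. Of the other 3, 2 were higher, Lhx2 among them (at least 85.7-fold higher; log2FC 5.74 ± 0.91, adjusted p = 0.00673), and Otx2, which the choroid plexus also uses, was lower (log2FC -8.01 ± 1.001, adjusted p = 0.00344). Of the Schwann cell and crest genes, 2 of 9 tested genes were higher and 1 lower, with a median of 0.75; the number lower was 1 to 2 with 1 library left out (Control GFP+ 2) and 1 to 2 under the other settings. Ngfr, the low-affinity neurotrophin receptor, had no control read and 51, 157 and 197 in RasV12 libraries (at least 181-fold higher; log2FC 6.88 ± 0.898, adjusted p = 0.00382). Sox10, a factor of that lineage too, had no read there, as given above.

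Leukocyte markers were low in both groups. Itgam, which encodes CD11b, had 0, 0 and 0 in control and 0.5, 0 and 0 in RasV12 libraries. In the microglia list none of 7 tested genes was higher or lower, with summed counts of 308 to 1554 in control, 192 to 906 in RasV12 GFP+ and 69537 to 109512 in RasV12 CD11b+ libraries. In the macrophage and monocyte list 3 of 8 tested genes were higher and none lower, with a median of 3.50. Its sums were 218 to 792 in control, 1199 to 2029 in RasV12 GFP+ and 25581 to 46423 in RasV12 CD11b+ libraries. Cd14, a receptor for bacterial lipids, had no control read and 132, 146 and 90.8 in RasV12 GFP+ libraries (at least 155-fold higher; log2FC 6.92 ± 0.79, adjusted p = 0.00276). Cd68, a lysosomal protein, had 102, 0 and 1 in control and 1497, 1346 and 868 in RasV12 libraries (log2FC 7.67 ± 1.73, adjusted p = 0.0229, but 0.0565 to 0.0913 without RasV12 GFP+ 1, 2 or 3 or Control GFP+ 3). Ptprc, which encodes CD45, had 1.8, 3.2 and 94.6 in control and 112, 181 and 28.6 in RasV12 libraries and did not pass (log2FC 3.03 ± 1.597, adjusted p = 0.235). Of 8 neutrophil genes none passed the filter, and neither of the 2 lymphocyte genes tested was called. The part of carried-over phagocyte RNA in Cd14 and Cd68 was not tested.

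Among the 15 genes with the largest rise that reached a mean of 1000 were several outside the lists. Psrc1, a spindle protein that p53 regulates, had 0, 0.8 and 1 in control and 4520.5, 2596 and 1948 in RasV12 libraries (5789-fold higher, 95% interval 1602 to 47806; log2FC 10.86 ± 0.78, adjusted p = 0.000761). Fam111a, a protease that acts at replication forks, had no control read and 1884, 1391 and 1461 in RasV12 libraries (at least 2063-fold higher; log2FC 10.61 ± 0.79, adjusted p = 0.000805). Cyp24a1, the enzyme that breaks down active vitamin D, had no control read and 1128, 1971 and 1418 (at least 1912-fold higher; log2FC 10.52 ± 0.803, adjusted p = 0.000863). Mc4r, a melanocortin receptor known from hypothalamic neurons, had 0, 0 and 1 in control and 1784, 2534 and 856 in RasV12 libraries (6237-fold higher, 95% interval 1119 to 246356; log2FC 10.28 ± 0.88, adjusted p = 0.00125). Among the 15 with the largest fall, 7 were of the myelin list. Gal3st1, which makes the myelin lipid sulfatide, had 1277, 798 and 1409 in control and no read in RasV12 libraries (at least 2606-fold lower; log2FC -10.14 ± 0.82, adjusted p = 0.00111). Slco4a1, a transporter of organic anions, had 2427, 924 and 1099 in control and 0, 0.6 and 0 in RasV12 libraries (10906-fold lower, 95% interval 1957 to 430811; log2FC -10.17 ± 0.86, adjusted p = 0.00124). Lhx1os, a noncoding RNA beside Lhx1, had 2614, 3559 and 2484 in control and 0, 14.9 and 0 in RasV12 libraries (log2FC -10.15 ± 1.21, adjusted p = 0.00309). The kit does not mark strand, so reads of Lhx1os and of an overlapping partner cannot be told apart.

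Some abundant genes varied more within a group than most. In the control cells these were Xist and Ddx3y, given above, and Alas2, of heme synthesis in red cells, with 1.2, 24509 and 7676. Isg20, an interferon-induced nuclease, with 0, 2682 and 468, and Rsad2, with 0, 2658 and 1210, were the others. Control GFP+ 1 was the lowest and Control GFP+ 2 the highest in Alas2, Isg20 and Rsad2. In the RasV12 cells they were Xist, Fos and Mbp, given above, Kcnk1, a potassium channel, with 244, 3406 and 1009, and Fmod, a collagen-binding proteoglycan, with 233, 213 and 2632. RasV12 GFP+ 2 was the highest in Kcnk1 and RasV12 GFP+ 3 in Fmod. Fmod did not pass between the groups (log2FC 5.505 ± 2.33, adjusted p = 0.149).

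Calls were uneven over kinds and levels of gene. Of 13837 protein-coding genes tested, 1483 were higher and 1611 lower, and of 497 lincRNA genes 64 were higher and 29 lower. Of 595 genes annotated as to be experimentally checked (TEC), 115 were higher and 6 lower. With tested genes split by mean level into 4 groups of like size, 598 were higher and 102 lower in the group of lowest level, and 599 higher and 982 lower in the group of highest level. RasV12 libraries had reads in more genes, as given above, and the part of that in this difference was not tested.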

How the data were processed

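RNA of sorted cells was amplified with the SMARTer Universal Low Input kit and made into Nextera XT libraries, per the labels' protocols. Reads were processed with HISAT2 2.1.0, featureCounts of Subread 1.6.2 and DESeq2 1.20.0 on GRCm38.p6, per the submitters' processing notes, which give no order or settings. The authors deposited normalized counts, a signal scaled by 1 factor per library, and FPKM for 54547 genes in 12 libraries. Depth in reads was recovered from the step of the normalized counts (at least 99.97% of values whole, tolerance 0.05). It served only depth, lower bounds and ratios, since a second check did not find whole reads in 2 libraries.

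Genes with at least 10 normalized counts in at least 3 of the 6 GFP+ libraries were tested with limma 3.58.1 (R 4.3.3, trend) on log2(normalized count + 1), with Benjamini-Hochberg adjustment over 17006 genes. The design was written for this unit, and the limma fit alone was tested on simulated counts. Changed genes there were drawn from those above a set mean level, so genes without control reads were not among them. The 54 lists hold pathway members and cell type markers. Members, lists and rules were chosen with earlier results of these data known. Named by rule were up to 5 list members with the smallest adjusted p and a mean of at least 100, the 15 largest changes each way at a mean of at least 1000, the 10 highest FPKM and the 5 widest ranges per group. Further list members, and the stretch on chromosome 5, were named after their values were seen. Gene positions are those of the annotation for GRCm38.p6. A symbol shared by overlapping annotation rows can lose its reads, and 1102 genes share a symbol. Some list members are not reported here.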

Additional observations from a re-analysis of the deposited data

How the results depend on the processing

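Among 21 other settings, the number of genes higher fell to 1086 with no filter on low values, where 37581 genes were tested, and the number lower to 792 with all 12 libraries in the fit, where 29835 were. With 1 library left out, 1023 to 2081 genes were higher and 1127 to 1449 lower, fewest without RasV12 GFP+ 2. Without RasV12 GFP+ 1 or 3, 1152 and 1098 were higher. The share of higher among called genes was 60.9% in the 12-library fit and 61.5% without Control GFP+ 3. The mitochondrial share differed by -36.13 percentage points as a share of FPKM and by -24.49 to -19.32 with 1 library left out. Of 149 named genes called, with Parm1 not counted, 128 held with each library left out and 114 in every setting that could test them. After quantile normalization the sign turned for Fth1 (log2FC 0.535), Slc1a3 (1.14), Cd47 (0.225) and Hras (0.259). After rescaling by the total it turned for Hras (0.339), Cd47 (0.215) and En2 (0.327), after upper-quartile rescaling for Hras (0.006) and with array weights for En2 (0.277). With 1 library left out, values of both signs came up for Hras (-0.179 to 0.091), En2 (-0.400 to 0.330), Cd47 (-0.421 to 0.121), Olig2 (-1.330 to 0.025), Isg20 (-4.876 to 0.819) and Fos (-0.467 to 1.912). Of these genes only Fth1 was called. The list median turned after rescaling by the total for the Ras proteins (0.12), hedgehog (0.25) and ribosomal protein genes (0.33). After quantile normalization it turned for collagens (-0.09), acute phase (-0.02), oncofetal (-0.27), microglia (-0.33), lymphocyte (-1.02) and ribosomal protein genes (0.01). Replicate numbers are shared by the groups, and in each GFP+ group number 3 had Xist and numbers 1 and 2 had Ddx3y reads. The r of same-numbered deviations was -0.005, -0.005 and 0.007, and not every library correlated best with its own number. These values, from 3 libraries per group, cannot show whether the numbers pair libraries. With the replicate block 1393 genes were higher and 1240 lower. Under it 6 named calls were not made: Dusp6 (adjusted p = 0.0548), Cdk1 (0.0584), Mmp3 (0.0608), Csf1 (0.0663), Ppbp (0.067) and Bmp4 (0.091). The cause of each change was not tested. The edgeR and DESeq2 fits planned on recovered reads were not run. Sex as a covariate, genes left out by class and protein-coding genes alone were settings chosen after seeing the data.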
